A study of Mus musculus with 10 samples.

Results

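The subunits of the NMDA receptor, the glutamate-gated calcium channel of excitatory synapses, were examined here as 6 genes, Grin1, Grin2a, Grin2b, Grin2c, Grin2d and Grin3a. They were chosen by name, as rows of the gene count table whose Ensembl identifier belongs to one of these symbols, and not by any measured value. All 6 of 6 were found among the 29883 genes of the table. RNA was sequenced from the dissected nucleus accumbens (NAc) of 5 C57BL/6J (B6) and 5 DBA/2J (D2) mice, 2 inbred strains that differ in their behavioral responses to ethanol, with 1 poly-A library per mouse. All mice were male, ethanol-naïve and group-housed. They were obtained at 7 to 8 weeks of age and habituated for at least 1 week before the tissue was taken. They carried no engineered allele or treatment, so that strain was the only labelled difference. Total gene counts per library ranged from 96977262 to 116776714.

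An NMDA receptor is a tetramer that pairs obligatory GluN1 subunits, encoded by Grin1, with GluN2 or GluN3 subunits. GluN1 and GluN3 bind the co-agonists glycine or D-serine and GluN2 binds glutamate, and the GluN2 type sets how long the channel stays open, how strongly magnesium blocks it and where the receptor is anchored. In the NAc the receptor carries the glutamate input from cortex, hippocampus and amygdala onto striatal projection neurons, and it is one of the direct targets of ethanol.

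All 6 genes lie on the minus strand of different chromosomes in GRCm39, the build to which the reads were aligned. Grin1 (ENSMUSG00000026959) spans chr2:25181186-25209226, Grin2a (ENSMUSG00000059003) chr16:9385762-9813424 and Grin2b (ENSMUSG00000030209) chr6:135690231-136150548. Grin2c (ENSMUSG00000020734) spans chr11:115139992-115158525, Grin2d (ENSMUSG00000002771) chr7:45481304-45527802 and Grin3a (ENSMUSG00000039579) chr4:49661611-49845847. Their kinship, and the ease with which reads tell them apart, show in the 27 coding bases of the most conserved stretch of the third membrane segment, which lines the channel gate. The stretch is given 5′ to 3′ on the coding strand from 1 GENCODE transcript each of 4 of the genes, with capitals for the bases that differ from Grin1:
Grin1: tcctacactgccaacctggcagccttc
Grin2a: AGTtacacAgccaacctggcTgccttc
Grin2c: AGctacacGgccaaTctggcagccttc
Grin3a: AcAtacacAgcGaacTtggcTgcTGtc

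Grin2a differed from Grin1 here at 5 and Grin2c at 4 of the 27 bases, with every codon keeping its residue. Grin3a differed at 8 bases, and 2 of its codons encode another residue. The stretch lies in exon 14 of 20 of Grin1 (chr2:25187211-25187237) and in exon 3 of 9 of Grin3a (chr4:49770470-49770496). Even so, the longest run of identical bases between any pair of the 6 coding sequences was 34 bases, between Grin2b and Grin2c. On the opposite strand, annotated non-coding genes with counts in the table covered part of the exons of 3 members. Grin1os covered 11.8% of the exon bases of Grin1, Gm45441 8.18% of those of Grin2d and Gm26653 1.04% of those of Grin2b. Mean counts of these 3 non-coding genes, before normalization, were 28.0, 646 and 86.5. Other non-coding genes on the opposite strand had no row in the table. Among them, Gm70166 covered 3.13% of the exon bases of Grin3a and Gm56352 0.969% of those of Grin2c. On the same strand as Grin2b, the protein-coding gene Gm65988 covered 1.96% of its exon bases and also had no row. The kit was stranded, but the strand setting of the counting is not given in the sources used here.

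The libraries were not alike in their transcripts of cortical neurons. The summed normalized counts of 7 genes of cortical projection neurons, among them Slc17a7, Neurod6 and Tbr1, were 8930, 8147, 100740, 17420 and 102076 in B6 replicates 1 to 5, and 23208, 58089, 62756, 50689 and 33383 in D2 replicates 1 to 5. B6 replicates 3 and 5 therefore stood above all other libraries. They were also the closest of the 20 pairs of libraries within a strain, with a mean chi-square of 4.89 per gene against at least 17.5 for the other pairs, but differed by more than sampling noise and were kept as 2 samples. The strains themselves overlapped for this list, of which 0 of 7 genes passed the test in edgeR and 0 in DESeq2 with all mice. Without B6 replicates 3 and 5, 6 of the 7 genes were higher in D2 in edgeR, as the B6 mice left had 8147 to 17420 summed counts against 23208 to 62756 in D2. All 9 markers of striatal projection neurons, the defining cells of the NAc, had at least 10676 normalized counts in every library. The strain differences of the subunits are given below also without B6 replicates 3 and 5, a choice made after the values were seen, which leaves the strains unequal in cortical marker level. In whole tissue, fewer cells of a type and less RNA per cell cannot be told apart.

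Strain differences were tested with edgeR on all genes, with log2 fold-change (LFC) of D2 against B6 and p-values adjusted for all genes (padj, threshold 0.05). Of the 6 subunit genes, 2 differed between strains, Grin2b and Grin2c, both lower in D2 mice. The background was of the same order. Of all genes, 18.3% passed the test in either direction, 9.83% passed as lower in D2, and 23.8% passed among the 15388 genes averaging 100 counts or more per library, as all 6 subunits did. The values of the strains overlapped for all 6 subunits, whereas 16.0% of all genes had strain values that did not overlap.

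Grin1 encodes the subunit that every NMDA receptor requires. Its normalized counts were 61162, 63105, 73300, 68131 and 72909 in B6 replicates 1 to 5 and 61658, 63475, 68541, 65080 and 65812 in D2 replicates 1 to 5. The D2 values lay wholly within the B6 range, and the highest B6 values were those of replicates 3 and 5. The B6 mean of 67721 ± 5535 and the D2 mean of 64913 ± 2582 (SD, n = 5 per strain) did not differ by the test (LFC = -0.06 ± 0.0551 SE, padj = 0.528). Without B6 replicates 3 and 5 the LFC was 0.02 (padj = 0.862).

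**Figure D1:**
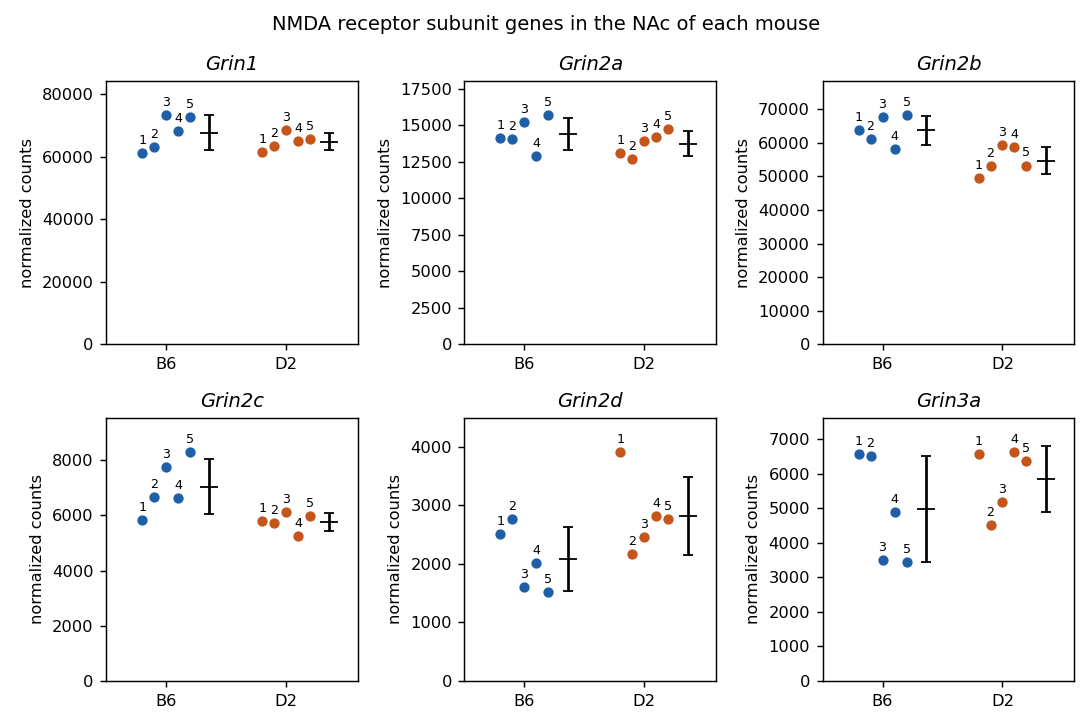
Normalized counts of the 6 subunit genes (vertical axes, counts scaled to a common library size, 1 panel per gene) in each B6 and D2 mouse, with the mean and SD of each strain as bars. D2 values of Grin2b and Grin2c sit mostly below the B6 values, and B6 replicates 3 and 5 are the lowest B6 values of Grin2d and Grin3a and the highest of the other 4 genes.

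Grin2b encodes GluN2B, the GluN2 subunit of slow channel closure that dominates early in development and persists in the adult forebrain. Normalized counts of Grin2b were 63786, 61119, 67591, 58158 and 68214 in B6 mice and 49440, 53073, 59249, 58669 and 53268 in D2 mice, in the order of replicates. D2 replicates 1, 2 and 5 lay below every B6 mouse, and D2 replicates 3 and 4 overlapped the lower end of the B6 range. The mean fell by 14.2% in D2 mice, from 63773 ± 4268 to 54740 ± 4147 (SD, n = 5 per strain), a significant difference (LFC = -0.22 ± 0.0596 SE, padj = 0.0209). Leaving out B6 replicates 3 and 5 left an LFC of -0.16 ± 0.0576 SE that no longer passed (padj = 0.0793). Leaving out D2 replicate 2 (padj = 0.052) or D2 replicate 5 (padj = 0.0534) also lost the call.

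Grin2a encodes GluN2A, the faster GluN2 subunit that increases as synapses mature. Its normalized counts were 14126, 14060, 15209, 12893 and 15687 in B6 mice and 13133, 12712, 13940, 14204 and 14774 in D2 mice. The ranges overlapped for all but the lowest D2 and the highest B6 mice. No strain difference was detected (means 14395 ± 1092 and 13753 ± 829, SD, n = 5 per strain, LFC = -0.07 ± 0.0562 SE, padj = 0.501). Without B6 replicates 3 and 5 the LFC was 0.00 (padj = 0.967).

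Grin2c encodes GluN2C, a subunit of receptors with weak magnesium block that is best known from cerebellar granule cells and is also found in astrocytes. B6 mice had 5816, 6680, 7769, 6642 and 8294 normalized counts of Grin2c, and D2 mice had 5778, 5726, 6127, 5255 and 5962. D2 replicates 1, 2 and 4 lay below every B6 mouse, and B6 replicates 3 and 5 were the 2 highest values. Expression was lower in D2 mice, where the mean fell by 18.0%, from 7040 ± 986 to 5770 ± 329 (SD, n = 5 per strain, LFC = -0.29 ± 0.0827 SE, padj = 0.0291). The LFC was -0.15 ± 0.0568 SE without B6 replicates 3 and 5 and did not pass (padj = 0.101). The call was also lost on leaving out any 1 of B6 replicates 3 and 5 and D2 replicates 1, 2 and 4, with padj up to 0.0759.

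Grin2d encodes GluN2D, the GluN2 subunit with the slowest closure, expressed in forebrain mainly by interneurons. For Grin2d the normalized counts were 2514, 2766, 1607, 2017 and 1518 in B6 mice and 3911, 2167, 2454, 2820 and 2760 in D2 mice. B6 replicates 3 and 5 held the lowest values and D2 replicate 1 the highest. The means of 2085 ± 548 and 2823 ± 662 (SD, n = 5 per strain) gave the largest LFC of the 6 genes, 0.44, but with an SE of 0.183 it did not pass (padj = 0.129). It was 0.21 without B6 replicates 3 and 5 (padj = 0.421).

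Grin3a encodes GluN3A, a glycine-binding subunit that lowers calcium entry and magnesium block and is most abundant in the immature brain. Its normalized counts were 6557, 6503, 3502, 4900 and 3439 in B6 mice and 6579, 4527, 5168, 6626 and 6364 in D2 mice. The B6 mice spanned almost the whole range of the series, with replicates 3 and 5 lowest. No strain difference was detected (means 4980 ± 1531 and 5853 ± 950, SD, n = 5 per strain, LFC = 0.23 ± 0.186 SE, padj = 0.467), and the LFC was -0.03 without those replicates (padj = 0.902). The remaining subunit gene of the family, Grin3b, was far lower, with a B6 mean of 39.0 ± 4.96 and a D2 mean of 30.1 ± 4.73 normalized counts (SD, n = 5 per strain, LFC = -0.37, padj = 0.164), and 32.1% of its exon bases overlap Tmem259 on the opposite strand.

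Over all 10 mice, 4 subunits were higher and 2 lower in libraries with more cortical marker transcripts. For this comparison the cortical marker level was the mean of the log2 values of the 7 marker genes. With strain means removed from log2 values, its Pearson's r with the subunit over the 10 mice was 0.89 for Grin1 and 0.78 for Grin2c. For Grin2b r was 0.66 and for Grin2a 0.55. It was -0.88 for Grin2d and -0.92 for Grin3a. These values share the libraries and rest in part on B6 replicates 3 and 5. Over the other 8 mice Grin2d stayed at -0.91, Grin3a at -0.76 and Grin1 at 0.69, while Grin2b was at 0.41, Grin2c at 0.02 and Grin2a at -0.31. Grin2d and Grin3a were also alike across mice, with r = 0.91 between them over 10 mice and 0.83 over 8. Of the 9 interneuron markers, 5 (Chat, Slc5a7, Nkx2-1, Lhx6 and Slc17a8) were lowest of all libraries in B6 replicates 3 and 5, whereas Sst and Kit were highest there. Lhx6, a transcription factor of interneurons from the medial ganglionic eminence, had 4870, 5116, 2366, 3519 and 2442 normalized counts in B6 replicates 1 to 5, and Chat, the acetylcholine-synthesizing enzyme of cholinergic interneurons, had 2430, 2598, 1254, 2307 and 1239. The part of interneuron content in the levels of Grin2d and Grin3a was not tested.

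**Figure D2:**
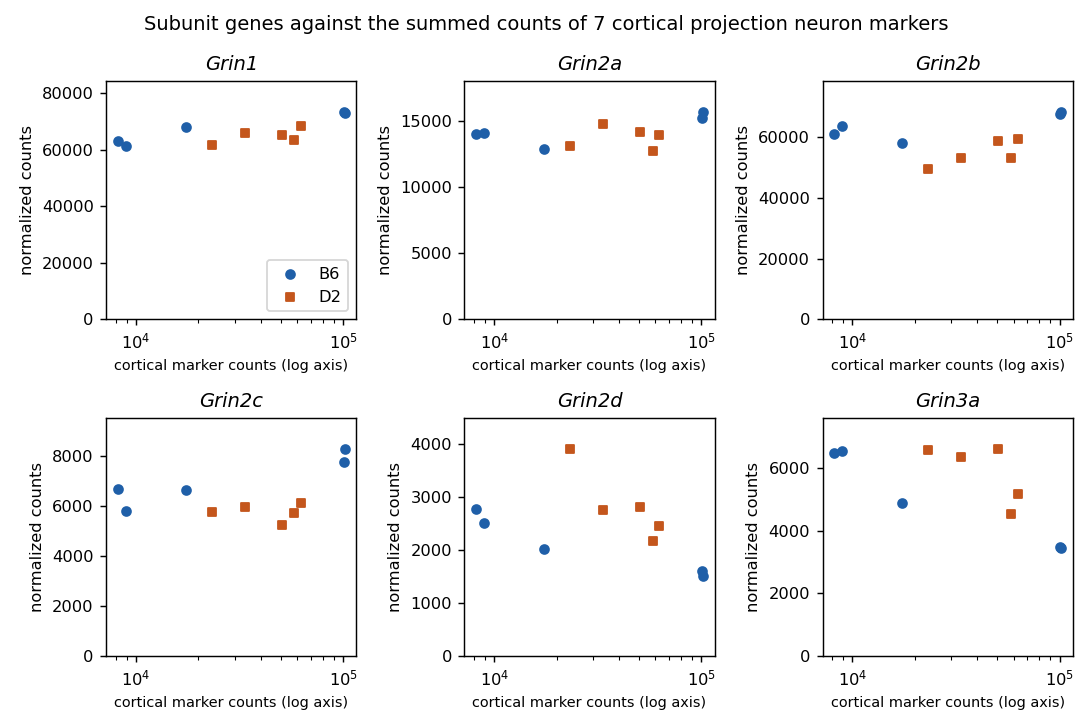
Normalized counts of each subunit gene (vertical axis) against the summed normalized counts of the 7 cortical marker genes (horizontal axis, log scale), 1 point per mouse, colored by strain. Grin2d and Grin3a descend to the right and Grin1 ascends. With the mean log2 marker level in place of the sum, and strain means removed, r was -0.88, -0.92 and 0.89.

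With the cortical marker level as a covariate in the same fit, 4 of the 6 subunits differed between strains, against 26.0% of all genes in that fit. Grin2b (LFC = -0.25 ± 0.0451 SE, padj = 0.0008) and Grin2c (LFC = -0.32 ± 0.0536 SE, padj = 0.000344) were again lower in D2. Grin2d (LFC = 0.59 ± 0.0871 SE, padj = 0.000137) and Grin3a (LFC = 0.41 ± 0.0755 SE, padj = 0.000785) were higher in D2. In the same fit, 6 of the 9 interneuron markers passed. Grin1 was at the threshold without passing it (LFC = -0.09, padj = 0.050029), and Grin2a did not pass (LFC = -0.09, padj = 0.22). Leaving out B6 replicates 3 and 5 instead gave 0 of 6 by edgeR, against 19.2% of all genes, with 2 subunits at an unadjusted p under 0.05. In that fit 6 of the 7 cortical markers were higher in D2, so it does not set mice of like cortical marker level against each other. The covariate and the left-out libraries moved Grin2d and Grin3a in opposite directions, to 0.59 and 0.41 with the covariate and to 0.21 and -0.03 without the libraries.

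**Figure D3:**
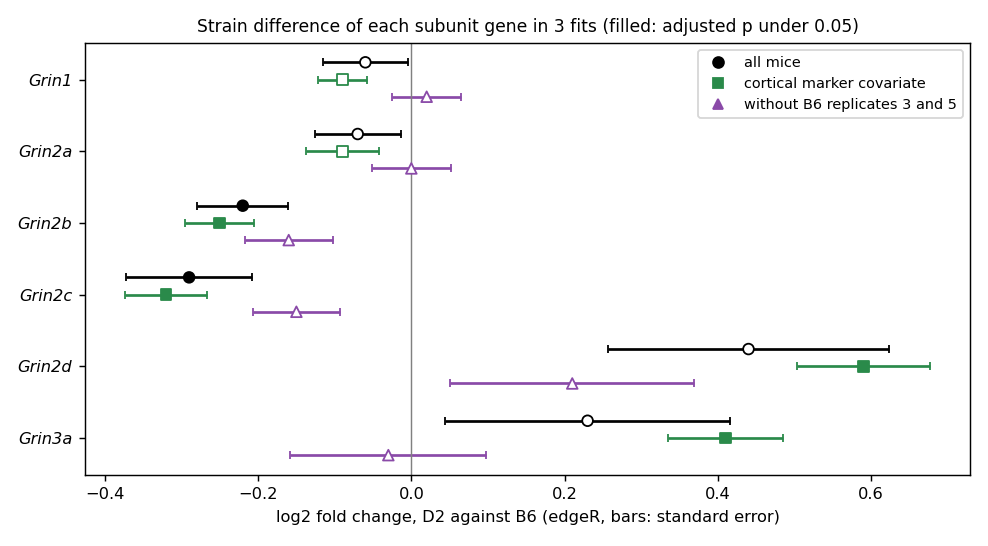
Log2 fold-change of D2 against B6 (horizontal axis, bars for the standard error) for the 6 subunit genes with all mice, with the cortical marker covariate and without B6 replicates 3 and 5. Filled symbols passed an adjusted p of 0.05, which Grin2b and Grin2c did with all mice, 4 genes did with the covariate and none did without the 2 libraries.

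Levels were compared between subunits as normalized counts per kb of exon. Grin1 was highest in both strains, with 6107 ± 499 for B6 mice and 5854 ± 233 for D2 mice (SD, n = 5 per strain), or 57.1% and 58.0% of the summed level of the 6 subunits. Grin2b followed at 2505 ± 168 and 2150 ± 163, and neither gene's range met that of any other subunit. Grin2a came next at 803 ± 60.9 and 767 ± 46.2, then Grin2c at 632 ± 88.5 and 518 ± 29.5, Grin3a at 379 ± 116 and 445 ± 72.3, and Grin2d at 265 ± 69.7 and 359 ± 84.2. Several neighbors in this order were not separated by their ranges. In B6 mice the ranges of Grin2a (719 to 875) and Grin2c (522 to 744) met, as did those of Grin3a (262 to 499) and Grin2d (193 to 352). In D2 mice the range of Grin3a (344 to 504) met those of Grin2c (471 to 550) and of Grin2d (276 to 498). With the longest transcript as the length, Grin3a stood above Grin2c in D2 mice. Grin1 then made up 70.1% of the summed level of the 6 subunits in B6 mice and 70.6% in D2 mice. Per kb of exon, Grin2b made up 59.6% ± 0.999 of the summed level of the 4 GluN2 genes for B6 mice and 56.6% ± 2.71 for D2 mice. Grin2d made up 6.37% ± 1.86 and 9.49% ± 2.34 (SD, n = 5 per strain).

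Ratios within a library do not depend on how libraries are scaled, and 4 were tested by two-sided exact permutation over the 252 assignments of mice to strains, with Benjamini-Hochberg adjustment over the 4. The ratio of Grin2a to Grin2b counts, the pair whose exchange marks synaptic maturation, was 0.221, 0.23, 0.225, 0.222 and 0.23 in B6 mice and 0.266, 0.24, 0.235, 0.242 and 0.277 in D2 mice. Every D2 mouse lay above every B6 mouse, and B6 replicates 3 and 5 did not stand apart from the other B6 mice. The means of 0.226 ± 0.00423 and 0.252 ± 0.0185 (SD, n = 5 per strain) differed by 0.16 on the log2 scale (exact permutation p = 0.00794, the smallest the design allows, adjusted p = 0.0317). The difference stayed at 0.16 without B6 replicates 3 and 5, with an exact p of 0.0714 (adjusted 0.25). With 5 against 3 mice the smallest exact p is 0.0179, which is too large for a single ratio to pass after adjustment over the 4. Of the 2 genes, Grin2b passed the test between strains and Grin2a did not.

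The other 3 ratios did not differ between strains by the same test. Summed GluN2 genes per Grin1 ran from 0.628 to 0.75 in B6 and from 0.626 to 0.669 in D2, a log2 difference of -0.09 (adjusted exact p = 0.222). Grin3a per Grin1 was 0.107, 0.103, 0.0478, 0.0719 and 0.0472 in B6 mice and 0.107, 0.0713, 0.0754, 0.102 and 0.0967 in D2 mice, with B6 replicates 3 and 5 lowest (log2 difference 0.33, adjusted exact p = 0.434). The summed level of Grin1, Grin2a and Grin2b relative to the 4 AMPA receptor genes, which encode the channels of fast excitatory transmission, had a B6 mean of 0.674 ± 0.0408 and a D2 mean of 0.665 ± 0.0335 (SD, n = 5 per strain, log2 difference -0.02, adjusted exact p = 0.683). Of the AMPA genes, Gria1 alone passed, lower in D2 (65376 ± 3822 and 58910 ± 2049, LFC = -0.15, padj = 0.0351), with LFC of 0.03 for Gria2 (padj = 0.846), -0.05 for Gria3 (padj = 0.872) and 0.11 for Gria4 (padj = 0.167). Without B6 replicates 3 and 5, Gria1 was still lower (LFC = -0.21, padj = 0.00155) and Gria3 passed as higher (LFC = 0.24, padj = 0.0442).

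**Figure D4:**
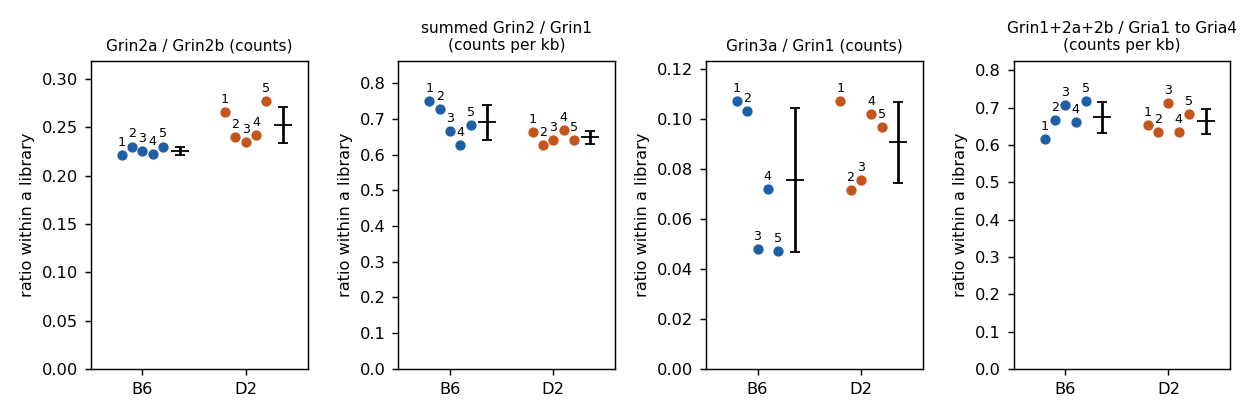
The 4 tested ratios (vertical axes, no unit, 1 panel per ratio) in each B6 and D2 mouse, with strain means and SD as bars. Grin2a to Grin2b separates the strains, with B6 mice at 0.221 to 0.23 and D2 mice at 0.235 to 0.277, and the other 3 ratios overlap.

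Genes that act on the receptor were then examined in 6 lists of 88 genes. Of these, 17 passed, 5 higher and 12 lower in D2, or 19.3% against the background of 18.3%. Of the 78 that averaged 100 counts or more, 21.8% passed. With the cortical marker covariate 34 of the 88 passed, where 26.0% of all genes did. The median LFC of the 88 genes was -0.028, and that of all genes was 0.0036.

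The list of co-agonist supply and clearance had 1 gene higher and 4 lower of 13 (median LFC -0.089). Phgdh, the first enzyme of serine synthesis, had 5768, 6640, 5871, 6296 and 6533 normalized counts in B6 mice and 3961, 4401, 4107, 3509 and 3759 in D2 mice. No value overlapped, and B6 replicates 3 and 5 were not extreme. The mean of Phgdh fell by 36.6% (LFC = -0.66 ± 0.061 SE, padj = 5.93e-06). Psat1, the next enzyme of serine synthesis and named after its values were seen, also fell (LFC = -0.29, padj = 0.000738), and the third enzyme, Psph, had an LFC of -0.16 (padj = 0.072). Gldc, which degrades glycine in mitochondria, fell (3635 ± 465 to 2752 ± 295, SD, n = 5 per strain, LFC = -0.40, padj = 0.00769), as did Slc1a5, a neutral amino acid exchanger (LFC = -0.36, padj = 0.016). Slc1a4, a carrier of serine and alanine, was slightly higher in D2 (LFC = 0.09, padj = 0.0494), and Srr, which makes D-serine, had an LFC of -0.09 (padj = 0.237). Astrocytes express several of these genes, and of 7 astrocyte markers 1 was higher and 3 were lower in D2, with summed counts of 124142 to 131949 in B6 and 117916 to 129967 in D2. The part of astrocyte content was not tested.

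Of 16 scaffolds, anchors and trafficking partners, 3 were lower in D2 and 0 higher (median LFC -0.032). Kif17, the kinesin that carries GluN2B-containing vesicles along dendrites, had 7149, 6869, 6929, 7937 and 7301 normalized counts in B6 mice and 4440, 4716, 4676, 4470 and 4578 in D2 mice. The strains were far apart relative to their spread, and the mean of Kif17 fell by 36.8% (LFC = -0.66 ± 0.0418 SE, padj = 1.78e-07). Dlg4, which encodes the postsynaptic scaffold PSD-95, fell from 88332 ± 3414 to 78552 ± 1731 (SD, n = 5 per strain, LFC = -0.17, padj = 0.00587) with no overlap. Actn2, an actin cross-linker that binds GluN1 and GluN2B, was also lower (LFC = -0.21, padj = 0.0379).

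Among 23 kinases and phosphatases, 1 was higher and 5 were lower in D2 (median LFC -0.026). Ptpn5, the striatum-enriched phosphatase STEP that dephosphorylates GluN2B, fell from 60736 ± 3549 to 51855 ± 2156 (SD, n = 5 per strain, LFC = -0.23, padj = 0.00349). Also lower were Ppp3ca, a catalytic subunit of calcineurin (LFC = -0.23, padj = 0.0118), and Prkcb, a protein kinase C (LFC = -0.22, padj = 0.00826). The other two that fell, Cdk5 (LFC = -0.21, padj = 0.00188) and the calcineurin regulatory gene Ppp3r1 (LFC = -0.21, padj = 0.0123), were named after their values were seen. Prkaca, the catalytic subunit of protein kinase A, was higher (LFC = 0.15, padj = 0.00398). Fyn (LFC = -0.02, padj = 0.71) and Src (LFC = -0.01, padj = 0.864), the tyrosine kinases that phosphorylate GluN2 subunits, did not pass. Some of these genes are enriched in striatal projection neurons, of whose 9 markers 6 were lower in D2 (median LFC -0.354, Drd2 -0.46 with padj = 8.62e-06, Drd1 -0.06 with padj = 0.67). Their summed counts were 508241 to 649143 in B6 and 421402 to 511995 in D2, and the part of striatal neuron content was not tested.

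In the remaining lists few genes passed. Of 12 kynurenine pathway genes, which make agonists and antagonists of the receptor, 8 had a mean under 100 counts and Ido2 alone passed, higher in every D2 mouse (321 to 413 normalized counts) than in any B6 mouse (289 to 314, LFC = 0.28, padj = 0.0249). Of 12 calcium effectors, 0 passed in edgeR and 0 in DESeq2, with 4 at an unadjusted p under 0.05. With the cortical marker covariate 5 of the 12 passed, where 26.0% of all genes did. Of 12 genes of transcription and RNA control, 2 were higher in D2. Nova1, a neuronal splicing factor, had 11118, 9723, 7872, 9738 and 7396 normalized counts in B6 mice and 13130, 11123, 10832, 13471 and 12696 in D2 mice (LFC = 0.42 ± 0.104 SE, padj = 0.0131). Its lowest values were again B6 replicates 3 and 5. Sp1, a general transcription factor, was the other (LFC = 0.16, padj = 0.0121). Without B6 replicates 3 and 5, 8 genes of the 88 were higher and 13 lower, where 19.2% of all genes passed in either direction. Of the 17 genes that passed with all mice, 13 passed again, 4 did not (Slc1a4 with padj = 0.15, Actn2 with 0.122, Ido2 with 0.0604 and Sp1 with 0.0585), and 8 others were gained. Phgdh (LFC = -0.66), Kif17 (LFC = -0.68), Dlg4 (LFC = -0.16) and Ptpn5 (LFC = -0.27) stayed lower in that fit and Nova1 stayed higher (LFC = 0.26, padj = 0.0278).

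**Figure D5:**
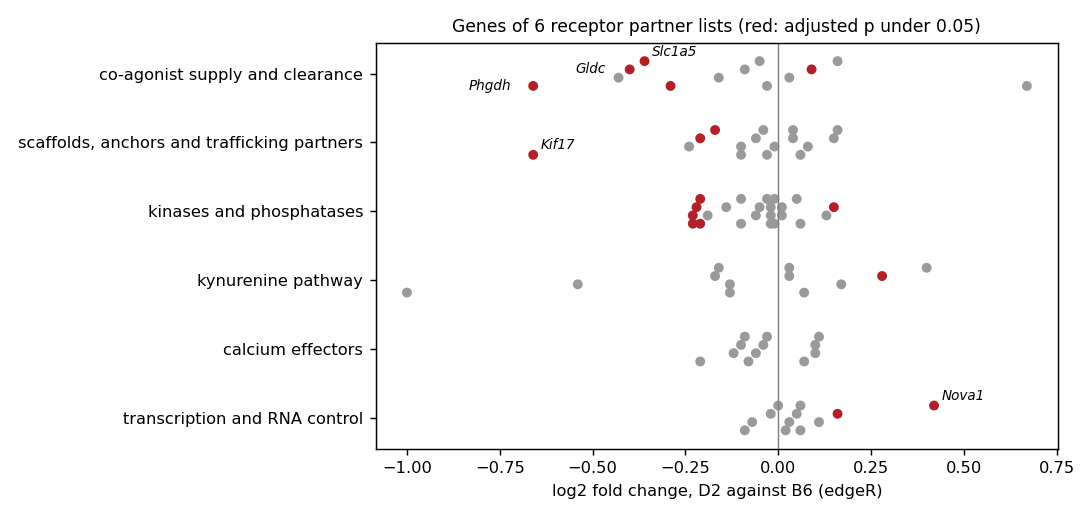
Log2 fold-change of D2 against B6 (horizontal axis) for the 88 genes of the 6 lists of receptor partners (rows), 1 point per gene, red for an adjusted p under 0.05. Of the 17 red genes, 12 lie below 0, with Phgdh and Kif17 farthest out at -0.66.

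The remaining marker lists completed the account of tissue content. Oligodendrocytes had 4 of 6 markers lower in D2 (summed counts 463594 to 669851 in B6 and 350121 to 511322 in D2), and 0 of 6 without B6 replicates 3 and 5. Microglia had 1 of 6 higher and 1 lower (25344 to 28436 and 22622 to 27383). Endothelium had 0 of 6 called in edgeR and 2 in DESeq2, with 3 at an unadjusted p under 0.05 (20381 to 25282 and 16677 to 22338). Interneurons had 0 of 9 in edgeR and 1 in DESeq2, with 1 at an unadjusted p under 0.05 (38120 to 42108 and 38660 to 44380). More of these markers passed with the cortical marker covariate, where 26.0% of all genes passed. They were 6 of 6 for oligodendrocytes, 3 of 6 for microglia, 3 of 6 for endothelium and 6 of 9 for interneurons.

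The genes whose level went most closely with each subunit over the 10 mice (Pearson's r of log2 values, strain means removed) were sought among the 15388 genes averaging 100 counts or more. They were Rbfox3, the neuronal marker NeuN, and Adgrl1, a presynaptic adhesion receptor, for Grin1 (both r = 0.979). For Grin2a they were Eps8l1 (r = 0.949) and Map2k5 (r = 0.916), and for Grin2b Tbc1d22a (r = 0.93) and Ncoa1 (r = 0.928). For Grin2c they were Ubl4a (r = 0.981) and 5730409E04Rik (r = 0.98), for Grin2d Samd5 (r = 0.991) and Capza1 (r = 0.989), and for Grin3a Cdh2 (r = 0.987) and Grik4 (r = 0.986), a kainate receptor subunit. These correlations share the libraries and the spread of cortical content.

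Around the subunit genes, 188 other genes started within 500 kb, of which 47, or 25.0%, differed between strains, 16 higher and 31 lower in D2. In either direction this was near the background of 18.3% of all genes and 23.8% of those averaging 100 counts or more. The share was 23.4% without B6 replicates 3 and 5. The 31 of 188 lower in D2 were a larger share than the 9.83% of all genes that passed as lower. As higher, 16 of 188 passed here and 2541 of 29883 among all genes. The genes that passed were 14 of 63 near Grin1, 0 of 8 near Grin2a, 1 of 8 near Grin2b, 11 of 44 near Grin2c, 19 of 56 near Grin2d and 2 of 9 near Grin3a. Near Grin2b, the 1 gene that passed had a mean under 100 counts. Tmem203, 64 kb from Grin1, was higher in every D2 mouse (719 ± 33.4 and 1250 ± 140, SD, n = 5 per strain, LFC = 0.80, padj = 8.84e-06). Cd300a, 390 kb from Grin2c, was lower (LFC = -0.43, padj = 0.0495), a call lost without B6 replicates 3 and 5 (LFC = -0.32, padj = 0.207). Ush1c, 360 kb from Grin2d, had 32.8, 30.0, 24.1, 38.5 and 14.4 normalized counts in B6 mice and 254, 144, 118, 212 and 109 in D2 mice (LFC = 2.58 ± 0.293 SE, padj = 3.73e-05).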

How the data were processed

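NAc RNA from 5 B6 and 5 D2 male mice was measured as 1 poly-A library per mouse. The authors trimmed reads with fastp, aligned those of both strains to GRCm39 with STAR 2.7.10b, sorted them with SAMtools 1.6 and deposited whole-number counts per gene from featureCounts, without normalization and without genes whose median count was 0 (the lowest median in the table was 0.5). Reads of D2 mice were aligned to a genome of the B6 strain. The labels and the published methods name different providers of the libraries. The summary columns of the deposited table were not used in tests.

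The counts of all 29883 genes were fitted with edgeR 4.0.16 in R 4.3.3 (two-sided quasi-likelihood F test after TMM scaling, Benjamini-Hochberg adjustment over all genes at 0.05), with no covariate, and each mouse as the replicate. Normalized counts are counts scaled by the TMM effective library size. The standard error of a log2 fold-change is its size divided by the square root of F. Depth of 96977262 to 116776714 counts per library made counting error small for the subunits, so that precision was set by the 5 mice per strain. The 4 ratios were tested by exact permutation. Exon lengths, exons and positions came from GENCODE vM39 on GRCm39, the same build, which matched 29519 gene identifiers. Lists were described by counts and medians without a set test. Genes were named by rule: all subunits and AMPA genes, up to 3 called genes in each direction per partner list with a mean of at least 100 counts, the 2 genes that correlated best with each subunit and the called gene of largest change within 500 kb. Psph, Srr, Fyn and Src, which did not pass, were named outside this rule, as were Psat1, Cdk5, Ppp3r1 and Neto1. Cortical, interneuron and striatal markers were named beside the results they touch. The subunits and lists were chosen with earlier results of these data known. Alternatives were DESeq2 1.42.0, other scalings and filters, a replicate block, a cortical marker covariate, a threshold of 0.01 and leaving out libraries. A few named genes and sequences are not reported here. Scripts were tested on simulated data.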

Additional observations from a re-analysis of the deposited data

How the results depend on the processing

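Of the 6 subunits, 2 passed the test, Grin2b and Grin2c, and the count was also 2 with DESeq2, DESeq2 size factors, total counts, upper-quartile factors, both filters, the replicate block and without mitochondrial genes. It was 4 with the cortical marker covariate, 0 without both B6 replicates 3 and 5, 0 at an adjusted p under 0.01, and 0 to 2 when 1 library was left out. Genes of the partner lists that passed numbered 17 of 88, and 34 of 88 with the covariate. The share of all genes rose from 18.3% to 26.0% in that fit, less than the share of the partner genes. Partner genes that passed numbered 9 at the threshold of 0.01 (where all genes fell from 5478 to 3415) and 14 to 22 with 1 library left out. Over the 10 fits with 1 library left out, the log2 fold-change ran from -0.26 to -0.19 for Grin2b (adjusted p up to 0.0534) and from -0.35 to -0.23 for Grin2c (up to 0.0759). Grin2b passed in 8 of 10 and Grin2c in 5 of 10. Without both B6 replicates 3 and 5, the direction turned for Grin1 (0.02), Grin2a (0.00 by rounding, adjusted p = 0.967), Grin3a (-0.03), Grin3a to Grin1 (-0.05) and the NMDA to AMPA ratio (0.04). The last was also 0.00 without B6 replicate 5. The cause was not tested.

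Grin2a to Grin2b kept its log2 difference of 0.16 without both B6 replicates 3 and 5 (adjusted exact p = 0.25, over 56 assignments, whose smallest unadjusted p is 0.0179) and ran from 0.12 to 0.18 with 1 library left out, passing in 6 of 10. It did not pass without B6 replicates 1, 2, 3 or 5 (adjusted p of 0.0635 to 0.0952). Leaving out 1 library gave -0.12 to -0.06 for the summed GluN2 genes to Grin1 (adjusted p = 0.0476 without B6 replicate 4), 0.18 to 0.48 for Grin3a to Grin1 and -0.05 to 0.00 for NMDA to AMPA.

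Replicate numbers did not pair the mice: deviations of same-numbered mice correlated at 0.371, -0.415, 0.369, 0.034 and -0.293, and 2 of 5 B6 mice correlated best with their own number. With the replicate block, 2 subunits and 16 partner genes passed, with 4731 of all genes. A block on the ratio of Grin2a to Grin2b left 0.16, with an exact p of 0.0625, the smallest that 5 pairs allow (adjusted p = 0.25). Total counts as the scaling moved the share of lower calls from 53.6% to 45.0% of all called genes.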

Other observations

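Neto1, an auxiliary protein of NMDA and kainate receptors, was singled out after its values were seen, as its D2 mice were spread far more than its B6 mice. Its normalized counts were 27319, 25494, 26603, 26960 and 25268 in B6 mice and 15154, 17001, 28318, 29441 and 21869 in D2 mice. D2 replicates 1, 2 and 5 lay below and D2 replicates 3 and 4 above all B6 mice, and the strains did not differ by the edgeR test (LFC = -0.24, padj = 0.364). Pvalb, a marker of fast-spiking interneurons, likewise had a wider range in D2 mice (947 to 1928) than in B6 mice (931 to 1211) without passing (LFC = 0.45, padj = 0.0739).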
